A study of Mus musculus with 6 samples.

Results

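The liver makes most of the protein that coats plasma lipoproteins, and the transcripts of 10 apolipoprotein genes (Apoa1, Apoa2, Apoa4, Apoa5, Apob, Apoc1, Apoc2, Apoc3, Apoe and Apom) were followed here in the livers of mice after vertical sleeve gastrectomy (VSG) or a sham operation. VSG is a weight-loss operation in which most of the stomach is removed and a narrow sleeve is left. The 10 genes were chosen by name, and their identifiers were found among the 55385 genes of the count table through the GENCODE M21 annotation. All 10 had enough counts to enter the test, which covered 14454 genes. The groups were 3 Sham livers and 3 VSG livers, each library from the liver of a male mouse, and by the study's methods the animals were wild-type C57BL/6. All animals of both groups were 6 to 8 weeks old at the outset, received a high-fat diet (HFD) for 10 weeks, were then operated on and stayed on the HFD for another 12 weeks. No group on a regular diet and no unoperated group entered the comparison, so each difference is between 2 operations under the same HFD. The comparison asks whether the liver's apolipoprotein transcripts differ after VSG.

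Apolipoproteins are carried on the surface of lipoprotein particles, where they hold lipid in solution, activate or block lipases and are recognised by receptors. Apob forms the backbone of very-low-density lipoprotein (VLDL) and of the low-density particles derived from it, and is loaded with triglyceride in the endoplasmic reticulum by the microsomal transfer protein Mttp. Apoa1 and Apoa2 are the main proteins of high-density lipoprotein (HDL), whereas the small C apolipoproteins, Apoa5 and Apoe move between particles and set how fast triglyceride is hydrolysed and remnants are taken up. Apoa4 is best known as a product of the small intestine, but in mice the liver makes it too, and fat loading of the liver is known to raise it.

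Total counts ran from 22804397 to 24191778 per library. Values per library are CPM (counts scaled to a common library size) with TMM scaling factors, which allow for differences in library composition. The hepatocyte marker Alb was abundant in both groups (means of 61458 CPM after sham surgery and 49966 CPM after VSG). Some markers of other cells and states differed between the groups. Of all 14454 genes tested, 6.79% were higher and 7.87% lower after VSG (edgeR, adjusted p under 0.05), and the marker counts stand beside these shares. All 12 neutrophil markers were higher after VSG, with a summed level of 78.1 to 219 CPM after sham surgery and 679 to 8478 CPM after VSG, and with Mpo, Ctsg and Ly6g at 0 counts in 1 Sham library each. Lcn2, which is on the acute phase list too, made up most of this sum (75.3 to 204 CPM after sham surgery and 527 to 6621 CPM after VSG), and limma-voom called 5 of the 12. VSG 5 was the lowest of the VSG libraries. All 19 acute phase genes were higher as well, at 30594 to 33869 CPM in sum after sham surgery against 96132 to 191506 CPM, again lowest of the VSG libraries in VSG 5. Of 12 Kupffer cell and macrophage markers 5 were higher (438 to 1097 CPM in sum without and 1034 to 2851 CPM with VSG), of 10 hepatocyte markers 3 were higher (Ambp, and Fga and Fgb, which also stand on the acute phase list; summed level 84600 to 123371 CPM in the Sham group and 120534 to 156075 CPM after VSG), and of 6 stellate cell markers 1 was lower. DESeq2 called 6 of the 10 hepatocyte markers, and the list median was 0.64. The 7 that edgeR did not call ran from -0.83 (Ttr, adjusted p = 0.103) to 1.25 (Trf, adjusted p = 0.132). The stellate cell list had 5 members at an unadjusted p under 0.05, 4 called by DESeq2, a median log2 fold change of -0.90 and sums of 529 to 682 CPM after sham surgery against 242 to 452 CPM. Its 1 edgeR call, 16.7% of the list, stood near the 14.7% of all genes called in either direction. Of the 5 cholangiocyte markers tested Sox9 was higher with edgeR, though with neither limma fit, while the other 4 had negative values that did not pass (list median -0.76). The 1 adipocyte marker tested, Plin4, was lower (log2 fold change -3.04). The other 5, among them Adipoq, Lep and Plin1, had too few counts to be tested, so the list does not report on adipocytes. Of 6 endothelial markers edgeR called 0 (1 at an unadjusted p under 0.05, and 0 by DESeq2, limma-voom or limma on log2(FPKM + 1)). The part of these differences in the results below was not tested. In bulk tissue, fewer cells of a type and less RNA per cell cannot be told apart.

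Of the 10 apolipoprotein genes, 2 differed between the operations at an adjusted p under 0.05 (edgeR quasi-likelihood test, Benjamini-Hochberg adjustment over all genes tested). Apoa4 was about 11 times lower after VSG and Apom about 2 times higher. Among all 14454 genes tested, 14.7% passed the same threshold, 6.79% higher and 7.87% lower after VSG, so the share of members that passed, 2 of 10, stands near that of all genes. With libraries scaled by their totals alone, all log2 fold changes shifted by a median of -0.14, and 486 genes were called higher and 1512 lower, against 981 and 1137 with TMM factors. The other 8 members did not pass. The log2 fold change was negative for 6 members and positive for 4 of them, with a median of -0.39 beside 0.03 over all genes tested. In 6 of 10 members the ranges of the groups were fully apart, a separation that 39.7% of all genes tested also showed. Between 1 and 5 members were called under the alternatives. DESeq2 called 5 (Apoa2, Apoc3 and Apoe in addition), beside 22.8% of all genes it tested. With library totals 4 were called (13.8% of all genes) and in the fit without VSG replicate 5 also 4 (18.4%). The fits without Sham replicate 3 and without VSG replicate 6 called 1 each (1.07% and 1.42% of all genes).

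**Figure D1:**
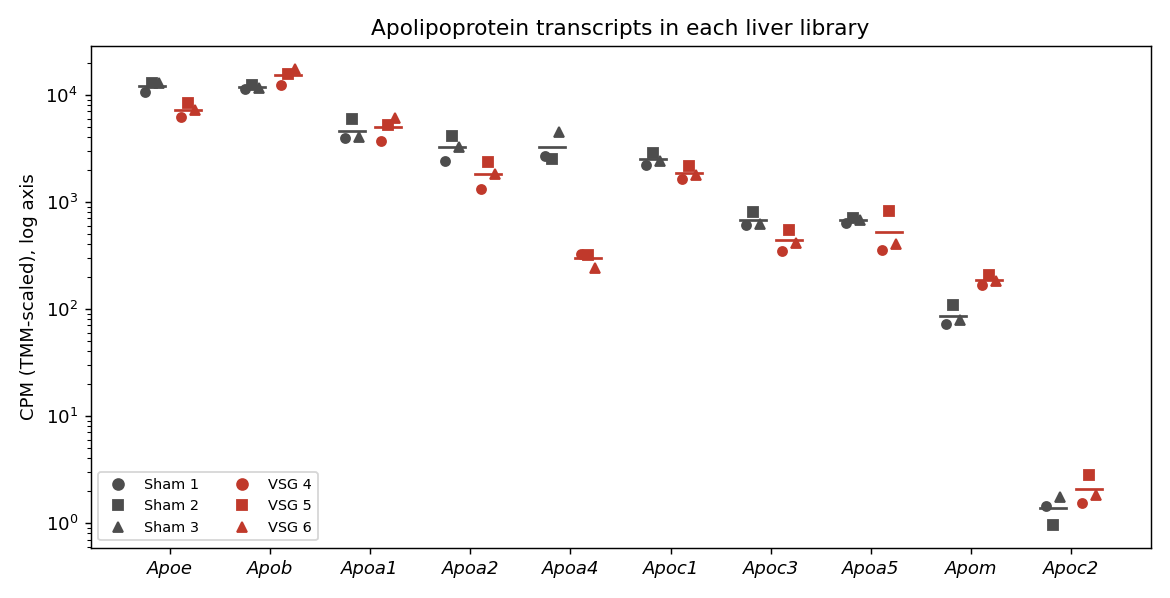
Level of each of the 10 apolipoprotein transcripts in each library, in TMM-scaled CPM on a log axis, for Sham (grey) and VSG (red) livers; symbols stand for single libraries and short lines for group means. The VSG points of Apoa4 lie between 239 and 326 CPM, below every Sham point, and those of Apom between 167 and 207 CPM, above every Sham point.

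Levels of different genes were compared per length, as FPKM (CPM per kilobase of summed exon). In Sham livers the order by mean FPKM was Apoa2 (6092 ± 1611, SD, n = 3), Apoe (5652 ± 635), Apoa1 (3740 ± 918), Apoc1 (3363 ± 445), Apoa4 (1778 ± 590), Apob (850 ± 36.0), Apoc3 (671 ± 111), Apoa5 (266 ± 13.5), and Apom (85.6 ± 19.4). Apoc2, listed at 1.70 ± 0.489 FPKM, is left out of the order because most of its exon bases are shared with another gene on the same strand. Apoa4 is kept, although 634 and 632 of its 1815 exon bases lie opposite the antisense genes described below. Whether counts of Apoa4 were lost there is not known. The Sham ranges of neighbours in this order did not overlap, except for Apoa2 with Apoe and Apoa1 with Apoc1. In VSG livers Apoa4 stood ninth in this order at 163 ± 26.9 FPKM, below Apom at 184 ± 20.1 FPKM, and Apoa1 stood first at 4044 ± 997 FPKM. After VSG the ranges of Apoa1 with Apoa2, Apoa2 with Apoe and Apoe with Apoc1 overlapped, as did those of Apoa5 with Apom and Apom with Apoa4. Apoe was nevertheless above Apoc1 in each of the 3 VSG libraries, while the order within the other pairs changed from library to library.

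Apoa4 encodes apolipoprotein A-IV, a protein of chylomicrons, VLDL and HDL. The gene (ENSMUSG00000032080.6) lies on the plus strand of chromosome 9 from 46240696 to 46243459 (GRCm38), in a cluster of 43.3 kb with Apoa1, Apoc3 and Apoa5. The sequences just before Apoa1, Apoa4 and Apoa5 are shown because the log2 fold changes of these 3 plus-strand neighbours ran from -3.45 to 0.11. They come from RefSeq (GRCm38.p6) and were cut at the more upstream of the RefSeq and GENCODE starts, which for Apoa4 are 148 bases apart.
Apoa1 (chr9:46228380-46228579, plus strand): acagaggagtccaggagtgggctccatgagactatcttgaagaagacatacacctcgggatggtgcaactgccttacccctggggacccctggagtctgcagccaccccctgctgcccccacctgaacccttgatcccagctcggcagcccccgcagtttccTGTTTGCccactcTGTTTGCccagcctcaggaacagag
Apoa4 (chr9:46240594-46240695, plus strand): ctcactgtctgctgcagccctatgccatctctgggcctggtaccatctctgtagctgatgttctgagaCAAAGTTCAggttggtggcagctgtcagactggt
Apoa5 (chr9:46268358-46268607, plus strand): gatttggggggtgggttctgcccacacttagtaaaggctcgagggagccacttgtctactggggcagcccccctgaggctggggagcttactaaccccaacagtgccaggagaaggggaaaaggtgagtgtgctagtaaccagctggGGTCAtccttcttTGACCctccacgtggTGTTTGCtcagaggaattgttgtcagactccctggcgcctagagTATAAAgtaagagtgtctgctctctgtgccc
Capitals mark matches, on either strand, to any of 6 motifs, in which N is any base. The nuclear receptor half-site was searched as GGTCA and the HNF4 site, which binds a liver nuclear receptor, as CAAAGTNCA. The C/EBP site was searched as TTGCNNAA, and the cyclic AMP response element, the target of factors activated by fasting signals, as TGACGTCA. The TATA box, the core promoter element just before many start sites, was searched as TATAAA. The forkhead site, bound by the Foxa and Foxo families of liver transcription factors, was searched as TGTTTNC. The Apoa4 window of 102 bases holds 1 HNF4 match, which 0.426% of all 32851 RefSeq promoter windows of that length hold. For each of the 3 genes the other windows were cut at the same distance upstream of their own RefSeq start. The Apoa1 window of 200 bases holds 2 forkhead matches (14.7% of such windows hold at least 1). The Apoa5 window of 250 bases holds 2 half-sites (35.2% of such windows hold at least 1), 1 forkhead match (17.8% hold at least 1) and 1 TATA match (12.4% hold at least 1). The remaining motifs had no match in these windows. A match is a run of letters and not evidence of binding.

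Apoa4 was at 2699, 2524 and 4459 CPM after sham surgery and at 326, 322 and 239 CPM after VSG. The lowest Sham library was 7.74 times the highest VSG library, and within each group the libraries lay within a factor of 1.77. The log2 fold change was -3.45 (SE 0.309, 95% interval -4.18 to -2.71, adjusted p = 0.00389, edgeR), so that VSG livers held 9.16% of the mean Sham level. Of the 110 genes with a mean of at least 1000 CPM over all 6 libraries, Apoa4 had the most negative log2 fold change. It passed that cut through its Sham libraries alone, and Cidec, below the cut, had a more negative value (-6.47). The Apoa4 call held under all 14 alternatives, with log2 fold changes from -3.60 to -3.15 and adjusted p-values of up to 0.0361 (without VSG replicate 6). Apoa4 is abundant in enterocytes, and of 9 enterocyte markers 6 (Alpi, Lct, Sis, Rbp2, Cdx1 and Cdx2) had too few counts to be tested, with 2 to 23 counts in sum per library, while Vil1 was below 1 CPM in both groups. Of the other 2, which are not confined to enterocytes, Fabp2 was lower after VSG (log2 fold change -2.06, SE 0.200, adjusted p = 0.00546) and Anpep did not pass (-0.40, adjusted p = 0.220).

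Transcripts annotated on the strand opposite Apoa4 fell with it. Gm10680, an antisense gene with 632 exon bases opposite exons of Apoa4, had 782, 581 and 1194 counts after sham surgery and 88, 87 and 49 counts after VSG. Its counts made up 1.07%, 1.05% and 1.02% of those of Apoa4 in Sham livers and 1.22%, 1.16% and 0.977% in VSG livers, so the ratio stayed between 0.977% and 1.22% in all 6 libraries. Its log2 fold change was -3.32 (SE 0.292, adjusted p = 0.00371). Gm47528, with 634 exon bases opposite Apoa4, stood at 0.0851% to 0.140% of the Apoa4 counts in all 6 libraries (log2 fold change -3.00, SE 0.387, adjusted p = 0.00962, and 0.0554 without VSG replicate 6). The libraries were strand-specific, but the strand option of the counting is not given in the sources used here, so reads of Apoa4 and of its antisense partners cannot be told apart with certainty.

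Apom encodes apolipoprotein M, the small HDL protein that carries sphingosine-1-phosphate. ENSMUSG00000024391.7 is a minus-strand gene on chromosome 17 (35128997 to 35132050). Apom was at 72.0, 109 and 78.9 CPM after sham surgery and at 167, 207 and 184 CPM after VSG. The lowest VSG library was 1.53 times the highest Sham library. The log2 fold change was 1.10 (SE 0.183, 95% interval 0.67 to 1.54, adjusted p = 0.0167, edgeR), a 2.15-fold rise. Under the alternatives the log2 fold change stayed between 0.98 and 1.30. The call was lost without Sham replicate 3 (1.03, adjusted p = 0.0904) and without VSG replicate 6 (1.11, adjusted p = 0.0692). No promoter is shown for Apom because the RefSeq window lies inside the transcribed part of the GENCODE gene.

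The 2 main HDL proteins did not pass the threshold. Apoa1 (ENSMUSG00000032083.8, chromosome 9, 46228580 to 46230466, plus strand), which takes up cell cholesterol and activates Lcat, was at 3909, 5932 and 4027 CPM in Sham and at 3688, 5175 and 6133 CPM in VSG libraries. The groups overlapped fully, and the log2 fold change of 0.11 (SE 0.303, 95% interval -0.61 to 0.83, adjusted p = 0.813) turned slightly negative under 3 of 14 alternatives (-0.011 with library totals, -0.0010 without Sham replicate 1 and -0.060 without VSG replicate 6). Apoa2 (ENSMUSG00000005681.12, chromosome 1, 171225054 to 171226379, plus strand), the second protein of HDL, was at 2412, 4142 and 3260 CPM in Sham and at 1321, 2367 and 1805 CPM in VSG libraries. The groups lay side by side, the lowest Sham library only 1.02 times the highest VSG library, and the log2 fold change was -0.84 (SE 0.309, 95% interval -1.57 to -0.10, adjusted p = 0.110). DESeq2 called it lower (adjusted p = 0.0215), and no other alternative did.

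Apob (ENSMUSG00000020609.14, chromosome 12, 7977648 to 8016835, plus strand) was the fourth most abundant gene of all by mean CPM. It was at 11440.5, 12407.5 and 11696 CPM in Sham and at 12331.5, 15630 and 17533 CPM in VSG libraries. The Sham libraries lay close together, VSG 4 fell among them and the other VSG libraries were above. The log2 fold change of 0.36 (SE 0.298, 95% interval -0.35 to 1.06) did not pass (adjusted p = 0.427). Apoe (ENSMUSG00000002985.16, chromosome 7, 19696109 to 19699188, minus strand), a ligand for remnant uptake by Lrp1, was the tenth most abundant gene. It was at 10518, 12857 and 12880 CPM in Sham and at 6212, 8328 and 7209 CPM in VSG libraries. No library of one group reached the other. Its log2 fold change was -0.74 (SE 0.278, 95% interval -1.40 to -0.08, adjusted p = 0.116), past the threshold with DESeq2 (adjusted p = 0.000257) and with library totals (0.0446).

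The C apolipoproteins and Apoa5 act on lipoprotein lipase: Apoc2 is its activator, Apoc3 slows both hydrolysis and remnant uptake, Apoc1 inhibits lipases and uptake, and Apoa5 favours hydrolysis. Apoc3 (ENSMUSG00000032081.10, chromosome 9, 46232933 to 46235636, minus strand) was at 609, 810 and 623 CPM in Sham and at 351, 547 and 415 CPM in VSG libraries. The groups did not overlap, and the log2 fold change was -0.64 (SE 0.216, 95% interval -1.15 to -0.13, adjusted p = 0.0910). It passed with DESeq2 (adjusted p = 0.0230), with library totals (0.0476) and without VSG replicate 5 (log2 fold change -0.85, adjusted p = 0.0374).

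Apoc1 (ENSMUSG00000040564.14, chromosome 7, 19689481 to 19692660, minus strand) was at 2211, 2863 and 2432 CPM in Sham and at 1632, 2167 and 1777 CPM in VSG libraries. The lowest Sham library was 1.02 times the highest VSG library. The log2 fold change was -0.43 (SE 0.210, 95% interval -0.93 to 0.07, adjusted p = 0.199), and no alternative called it. Apoa5 (ENSMUSG00000032079.12, chromosome 9, 46268633 to 46271919, plus strand) was at 637, 705 and 674 CPM in Sham and at 352, 830 and 402 CPM in VSG libraries. VSG 5 was above every Sham library and the other VSG libraries were below all of them. The log2 fold change was -0.35 (SE 0.329, 95% interval -1.13 to 0.44, adjusted p = 0.483), and without VSG replicate 5 it was -0.85 (adjusted p = 0.0217). An antisense gene, Gm47544, lies wholly opposite exons of Apoa5 and held 0.220% to 0.325% of the Apoa5 counts.

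The level of Apoc2 cannot be read from these counts. Apoc2 (ENSMUSG00000002992.17, chromosome 7, 19671579 to 19677941, minus strand) had only 39, 21 and 46 counts after sham surgery and 34, 66 and 38 after VSG. Of its 813 exon bases, 646 are shared on the same strand with the read-through gene Gm44805, which had 0 counts in every library, and 167 bases are its own. How reads on shared bases were treated is not given in the sources used here. The fitted log2 fold change was 0.57 (SE 0.342, adjusted p = 0.279), with libraries at 1.44, 0.959 and 1.75 CPM in Sham and 1.54, 2.82 and 1.81 CPM after VSG.

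**Figure D2:**
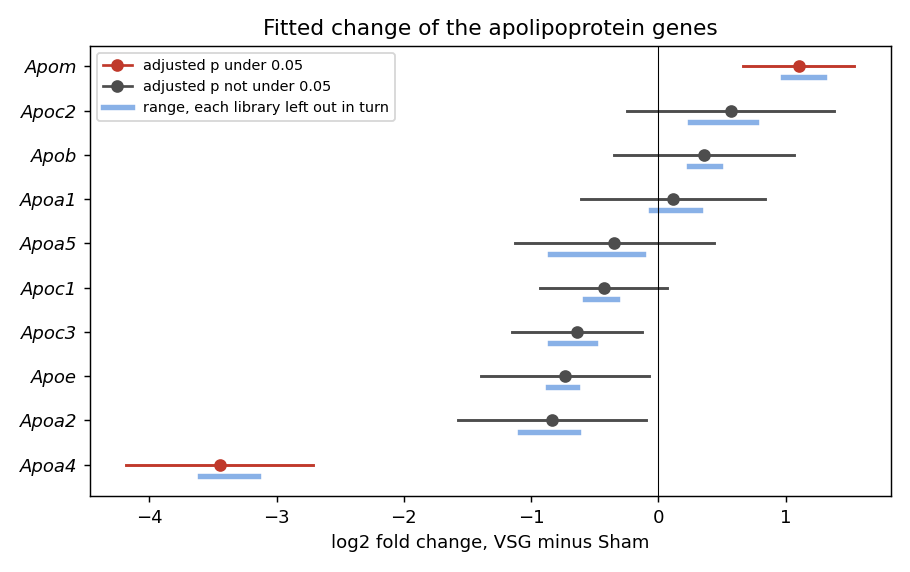
Fitted log2 fold change (VSG minus Sham) of the 10 genes, with the 95% interval as a line and the range over 6 fits that leave out each library in turn as a blue bar below it; red marks an adjusted p under 0.05. Apoa4 at -3.45 and Apom at 1.10 are red, and the interval of each of the other genes is drawn in grey.

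Together the 10 genes made up 3.95%, 3.91% and 4.37% of all counts after sham surgery and 2.56%, 3.54% and 3.20% after VSG. The mean share was 4.08% ± 0.253 (SD, n = 3) and 3.10% ± 0.499, a difference of -0.98 percentage points, and the shares did not overlap. Summed after TMM scaling, the levels did overlap, at 34509, 42349 and 40132 CPM after sham surgery and 26382, 35576 and 35699 CPM after VSG. The 19 acute phase genes took a larger part of the same VSG libraries, as given above, and their part in the lower share was not tested. The exact two-sided permutation test gave p = 0.1, the smallest that 3 against 3 libraries allow. As a share of the summed FPKM the means were 6.66% ± 0.460 and 4.23% ± 0.840, a difference of -2.43 points (exact permutation p = 0.1). Within the 10 genes the make-up differed too. Apoa1 was 14.2% to 18.6% of their summed FPKM in Sham and 23.6% to 30.6% in VSG livers, and Apob was 3.45% to 4.37% and 6.31% to 7.75%. Apoa4 went from 5.38% to 10.7% in Sham to 0.813% to 1.46% in VSG livers. These are shares of one whole, so a lower share of one gene raises those of the others by arithmetic.

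**Figure D3:**
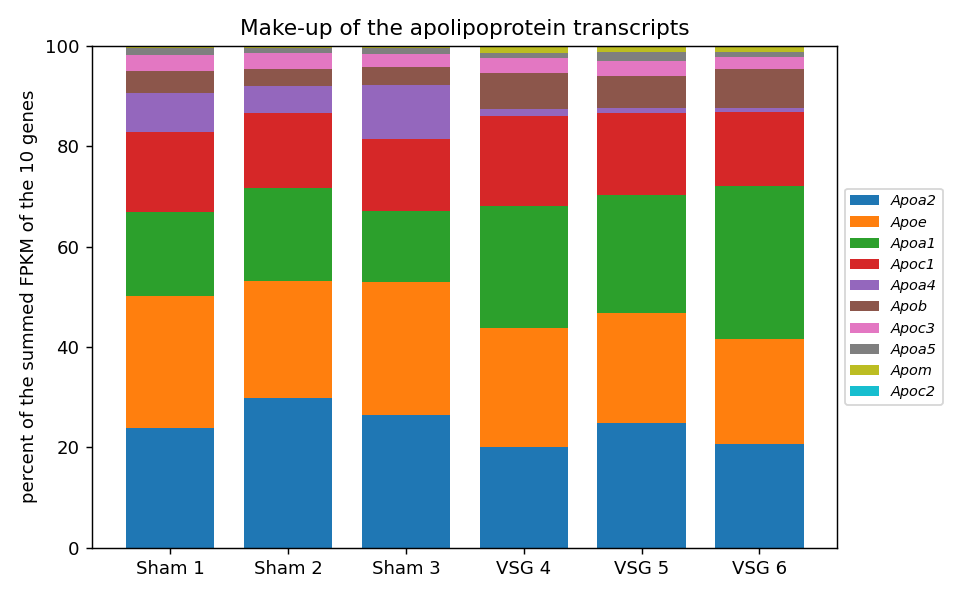
Make-up of the apolipoprotein transcripts in each library: each bar is 1 library and each coloured segment the percent of the summed FPKM of the 10 genes held by 1 gene. The Apoa4 segment spans 5.38% to 10.7% in the Sham bars and at most 1.46% in the VSG bars, while that of Apoa1 is at least 23.6% in every VSG bar and at most 18.6% in the Sham bars.

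Ratios within a library do not depend on the scaling between libraries. Apoa4 per Apoa1 (in FPKM) was 0.470, 0.290 and 0.754 in Sham and 0.0602, 0.0423 and 0.0266 in VSG libraries, a log2 difference of -3.52. Apob per Mttp was 13.8, 10.4 and 12.1 in Sham and 20.5, 18.1 and 22.1 in VSG libraries, a log2 difference of 0.75 or 1.68-fold. Neither ratio overlapped between groups, and each had the smallest exact permutation p of 0.1. In this pair Apob had the positive and Mttp the negative log2 fold change (-0.41, SE 0.201, adjusted p = 0.203), and neither passed by itself. Apoa5 per Apoc3 was 0.420, 0.350 and 0.435 in Sham and 0.404, 0.610 and 0.390 in VSG libraries. These values overlapped (log2 difference 0.20, exact permutation p = 0.6), and without VSG replicate 5 the difference was -0.011. Apoc3 per Apoc2 differed by -1.22 on the log2 scale (exact permutation p = 0.1), but its denominator is the unreadable Apoc2 count.

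Of 45 tested genes within 100 kb of a member, 4 passed the threshold (8.89%, against 14.7% of all genes), all lower after VSG. Gm10680 and Gm47528 are those that overlap Apoa4. Sdhc, a subunit of succinate dehydrogenase 74.5 kb from Apoa2, had a log2 fold change of -0.69 (SE 0.140, adjusted p = 0.0268), and Abhd16a, a phospholipid hydrolase 26.0 kb from Apom, one of -0.66 (SE 0.138, adjusted p = 0.0285). Both lost the call when Sham 2, Sham 3, VSG 4 or VSG 6 was left out (adjusted p of up to 0.116 and 0.122). The count of 4 became 1 without VSG 6 and 2 without any of the other libraries just named. With DESeq2 it was 8, 2 of them higher after VSG, and without VSG 5 it was 5, 1 of them higher. In the chromosome 9 cluster the log2 fold changes of the members ran from -3.45 (Apoa4) to 0.11 (Apoa1), and the genes flanking it, Sik3 (-0.17, adjusted p = 0.245) and Zpr1 (0.27, adjusted p = 0.344), did not pass. In the Apoe cluster on chromosome 7 the members other than Apoc2, at -0.74 and -0.43, and Apoc4 between them and Apoc2 (-0.31, SE 0.187, adjusted p = 0.275) all had negative values without passing.

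**Figure D4:**
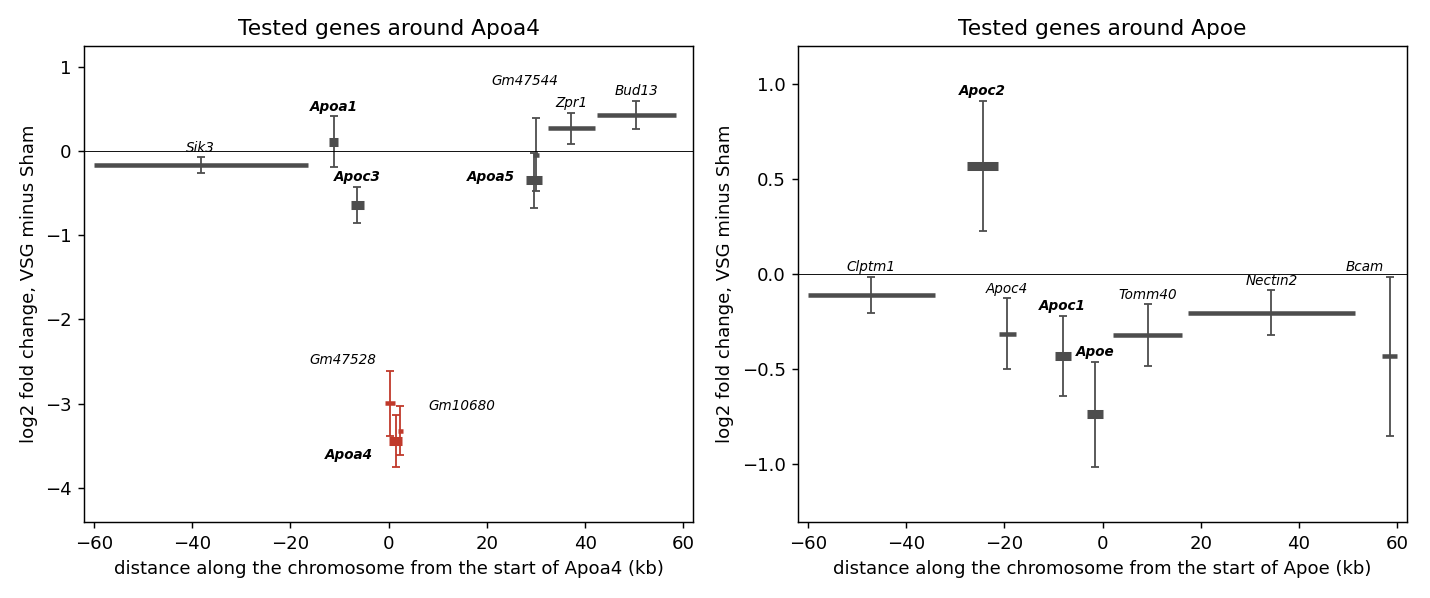
Log2 fold change (VSG minus Sham, vertical axis) of tested genes by distance in kb along the chromosome from the start of Apoa4 (left) and of Apoe (right); each horizontal bar spans a gene, cut at 60 kb, vertical lines are standard errors, bold names are apolipoproteins of the 10, and red marks an adjusted p under 0.05. Around Apoa4 only Apoa4 and its overlapping antisense genes Gm10680 and Gm47528 are red, and around Apoe no gene is red.

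Further genes of lipoprotein metabolism were read from lists drawn up for each step. Earlier results of these data were known when the lists were chosen, so their shares are descriptions and not independent tests. Of 18 other apolipoproteins and HDL-borne proteins 14 were tested and 6 passed (42.9%, against 14.7% of all genes tested). The 4 lower genes were Apool (log2 fold change -0.68), a mitochondrial inner membrane protein that is an apolipoprotein by name, Apol7a (-1.25), Apol9a (-2.09) and Apol9b (-1.63), of the apolipoprotein L family. The 2 higher genes were Apol10b (3.46), which averaged only 0.473 CPM after sham surgery and 5.29 CPM after VSG, and Saa4 (1.84), a constitutive HDL protein of the serum amyloid A family, whose acute phase relatives Saa1 and Saa2 were higher as well (5.87 and 6.54). Apol9a and Apol9b are near-identical copies, so their counts are uncertain. The median over the list was -0.26. Apol7a (adjusted p = 0.0482) lost its call under 7 of 14 alternatives, among them both limma fits and RLE factors. The count of 6 was 3 without Sham replicate 2, 1 without VSG replicate 6, and all 6 genes lost their calls without Sham replicate 3.

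Of 22 genes of VLDL assembly and secretion 7 passed (31.8%, against 14.7% of all genes tested in either direction and 7.87% lower), all lower, with a median of -0.20. As this list was chosen with earlier results known, its share is a description only. Sar1b (-0.94), a GTPase of the vesicles that take lipoproteins out of the endoplasmic reticulum, and Cideb (-0.58), which helps load VLDL with lipid, belong to the pathway proper. Cidec (-6.47; 90.9 ± 30.0 CPM in the Sham group and 1.02 ± 0.580 CPM after VSG, SD, n = 3), Plin2 (-1.47) and Pnpla2 (-0.58) act on lipid droplets, and Ces1d (-3.22) and Ces1g (-2.24) are carboxylesterases that act on stored lipid. Tm6sf2 (0.01), Surf4 (0.13) and Apobec1 (0.36), which edits the Apob transcript, did not pass. Cidec and Plin2 kept their calls under every alternative. Pnpla2 (adjusted p = 0.0494) lost its call under 7 of 14, among them both limma fits, Ces1g under 6, limma-voom among them, and Sar1b under 5, limma on log2(FPKM + 1) among them. Cideb lost its call under 5 of 14 (edgeR adjusted p of up to 0.136) and Ces1d under 4 (up to 0.141), always with a library left out. The count of 7 was 4 without Sham replicate 1, 3 without VSG 4, and 2 when Sham 2, Sham 3 or VSG 6 was left out.

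Among 15 receptors and partners of lipoprotein uptake 3 passed (20%, against 14.7% of all genes; median -0.10). Lrp1, a remnant receptor that binds Apoe, was higher (log2 fold change 0.97, SE 0.175, adjusted p = 0.0201), and Vldlr (-2.23, SE 0.548, adjusted p = 0.0414) and Cd36 (-1.80, SE 0.204, adjusted p = 0.00732) were lower. Of 15 lipases and plasma remodelling genes 2 passed (13.3%), the endothelial lipase Lipg (-2.06, SE 0.403, adjusted p = 0.0240) and the protease Pcsk6 (-1.10, SE 0.240, adjusted p = 0.0313), with a median of -0.07. Lpl, on which the C apolipoproteins act, was at 0.31 (SE 0.548, adjusted p = 0.710) and changed sign without Sham replicate 2 or VSG replicate 4, and Lcat was at 0.36 (SE 0.186, adjusted p = 0.218). Of 13 tested genes of sterol and phospholipid efflux Abca1, which loads Apoa1 with lipid, was higher (1.14, SE 0.236, adjusted p = 0.0274) and Abcb1a lower (-2.84, SE 0.230, adjusted p = 0.00273), which makes 15.4% of that list, with a median of -0.22. When Sham replicate 3 or VSG replicate 6 was dropped, the uptake count was 1, with Lrp1 (adjusted p of up to 0.113) and Vldlr (up to 0.136) no longer called, and both lipase genes lost their calls (adjusted p of up to 0.0918 for Lipg and 0.122 for Pcsk6). Lrp1 and Vldlr lost their calls without Sham replicate 2 as well, and Vldlr also without VSG replicate 4 and with limma-voom. Pcsk6 also lost its call when Sham replicate 2 or VSG replicate 4 was dropped, which left a lipase count of 1. The efflux count was 1 when any single Sham library was dropped, and Abca1 lost its call there and when VSG replicate 6 was dropped (adjusted p of up to 0.123). Cd36 and Abcb1a kept their calls throughout.

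Of 34 transcription factors known to act on apolipoprotein genes 7 passed (20.6%, against 14.7% of all genes), with a median of 0.11. Foxa3 (0.67), Nr5a2 (0.69), Onecut1 (2.40) and Sp1 (0.49) were higher, and Pparg (-1.23), its coactivator partner Ppargc1a (-0.79) and Srebf1 (-0.78) were lower. The factors best known for these promoters did not pass. Hnf4a, a main activator of the chromosome 9 cluster, was at 0.37 (SE 0.177, adjusted p = 0.194), and Creb3l3, a membrane-bound factor that drives Apoa4, Apoa5 and Apoc2, was at -0.46 (SE 0.187, adjusted p = 0.137, and 0.0487 without VSG replicate 5). Pparg kept its call under every alternative. Foxa3, Nr5a2 and Onecut1 lost theirs when Sham 1 was left out (adjusted p of 0.0577, 0.0861 and 0.0691). The same 3 lost them without Sham 3 and without VSG 4, with adjusted p over all alternatives of up to 0.112, 0.139 and 0.134. Ppargc1a lost its call under 4 of 14 alternatives and Srebf1 under 2. Onecut1 lost its call under 7 of 14 alternatives, both limma fits among them, and Sp1 under 5, library totals among them. The count of 7 was 4 when Sham 2 or VSG 4 was left out, 2 for VSG 6 and 1 for Sham 3.

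**Figure D5:**
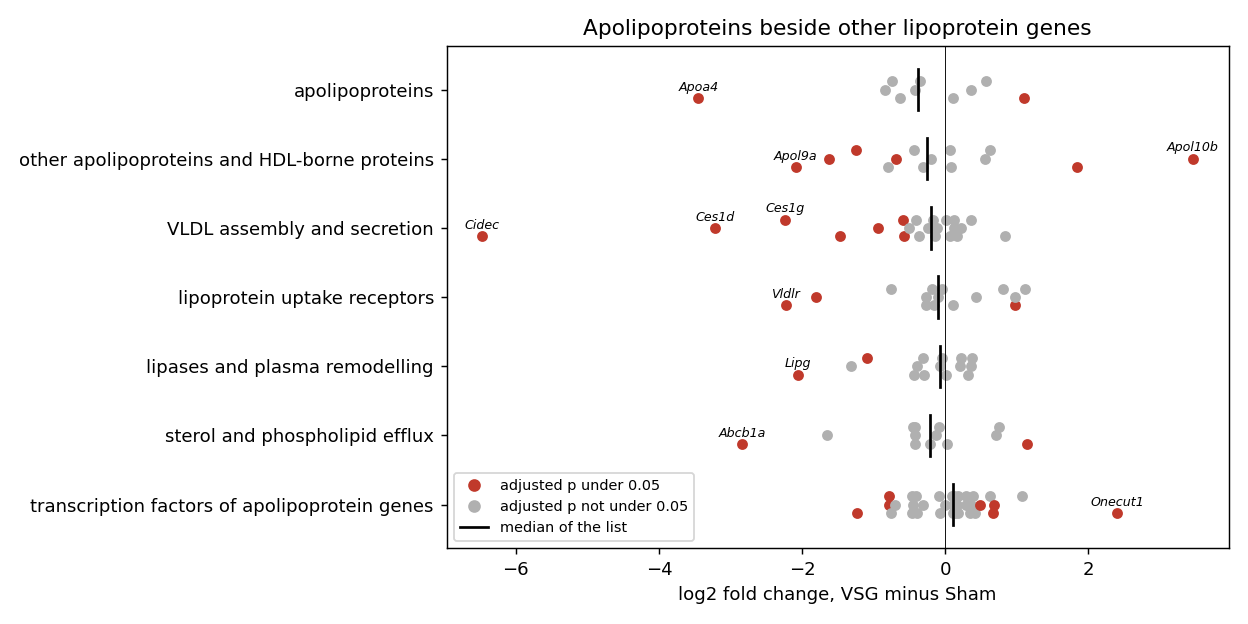
Log2 fold change (VSG minus Sham) of every tested gene of the 10 apolipoproteins and of 6 lists of lipoprotein genes, 1 point a gene; red marks an adjusted p under 0.05 and black bars are list medians. Most points lie near 0, the medians run from -0.39 to 0.11, and all 7 red points of the VLDL list lie on the negative side, Cidec at -6.47.

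The genes most like the 2 called members over the 6 libraries were named by the Pearson correlation of log2 CPM among 9965 genes with a mean of at least 5 CPM. These correlations are descriptions over 6 libraries in 2 groups and largely follow the group difference. Nearest to Apoa4 were Pepd (r = 0.9997), a dipeptidase, Mrpl42 (r = 0.999), of the mitochondrial ribosome, and Gm10680 (r = 0.998), the antisense gene described above. The sizes differed widely, with log2 fold changes of -0.89 for Pepd and -0.45 for Mrpl42 against -3.45 for Apoa4. Nearest to Apom were the pseudogene Gm10319 (r = 0.993, log2 fold change 1.36), the histone methyltransferase Nsd3 (r = 0.992, 0.38, adjusted p = 0.0592) and Plg (r = 0.991, 0.75, adjusted p = 0.0640), the plasminogen gene.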

How the data were processed

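Liver poly(A) RNA of 3 Sham and 3 VSG mice was compared, grouped by title. The deposited values are raw read counts per gene, made by the authors with STAR 2.6.0 (mm10) and featureCounts 2.0.3, per the labels. Annotation release, strand option and multi-mapping rule are not given in the sources used here. Of 55385 genes, 55144 matched GENCODE M21. The deposited exon length served only for FPKM.

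The test was edgeR 4.0.16 under R 4.3.3 (filterByExpr with minimum count 10 and total 15, TMM, glmQLFit and glmQLFTest, prior count 0.125), adjusted by Benjamini-Hochberg over 14454 genes. A trial on simulated counts used the same dispersion for all genes, so it does not show how the test behaves on these replicates. Replicates differed beyond counting noise (chi-square per degree of freedom at least 25.2). Alternatives were DESeq2 1.42.0, limma 3.58.1, RLE factors, library totals, other low-count filters, a prior count of 2, other denominators and each library left out.

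Members and lists were chosen with earlier results of these data known. Named were all members, called list genes, Mttp, Lpl, Lcat, Hnf4a, Creb3l3 and Gm10680, called neighbours within 100 kb, and the 3 genes most like each called member. Tm6sf2, Surf4, Apobec1, Sik3, Zpr1, Apoc4, Gm47544, Gm44805, Saa1, Saa2 and the markers named were chosen after their values were seen. RefSeq promoters were found for 8 members. One further gene of the naming rule is not reported here.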

Additional observations from a re-analysis of the deposited data

How the results depend on the processing

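No paired analysis was possible because the replicate numbers of the Sham libraries (1 to 3) and the VSG libraries (4 to 6) are not shared. The direction of Apoa4 and its call held under all 14 alternatives, and Apom kept its direction under all of them. With DESeq2 the counts of called genes rose to 3288 over all genes, 5 members, 6 efflux genes and 8 neighbours, and with library totals to 4 members. As a share of summed FPKM the difference in the family's share was -2.43 points. Leaving out 1 library at a time, the calls ran from 159 to 2732 over all genes, 1 to 4 members, 0 to 7 other apolipoproteins, 2 to 6 VLDL genes, 1 to 3 uptake genes, 0 to 2 lipase genes, 1 to 3 efflux genes, 1 to 8 transcription factors and 1 to 5 neighbours, lowest in most lists without Sham replicate 3 or VSG replicate 6. Fewer libraries leave fewer degrees of freedom. Signs turned for Apoa1 with library totals (-0.011), when Sham replicate 1 (-0.0010) or VSG replicate 6 (-0.060) was left out, with a range of -0.060 to 0.33 over single libraries left out. They turned for Lpl when Sham replicate 2 (-0.069) or VSG replicate 4 (-0.066) was left out, with a range of -0.069 to 1.06. The cause was not tested. None of the differences in share or ratio can pass an exact test at this size. Low counts limit the values of Apoc2, Gm47528 and Apol10b.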
